A study of Mus musculus with 14 samples.

Results

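A set of genes of the growth hormone pathway in liver was followed in male mice lacking the liver microRNA miR-122. It holds the hormone's receptor gene, the gene of the transcription factor STAT5B and genes that depend on them. The set takes 10 of the 12871 genes named in the authors' 5-week table. All 10 were found by their symbols: Ghr, Stat5b, Socs2, Bcl6, Hsd3b5, Elovl3, Slco1a1, Mup3, A1bg and Cish. The genes were chosen by their place in this pathway and with their knockout and control log2 means at 5 weeks already known, so those values are given as a description, with no test.

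The series holds 14 liver RNA samples from male mice on a background that the labels write as 57/BL6J, and 4 of them, at 5 weeks of age, are used here. The 2 controls carried floxed miR-122 alleles (miR-122loxP/loxP) per the genotype labels, although the titles read wild type. The 2 knockouts carried the same floxed alleles and Alb-Cre, in which the albumin promoter expresses the recombinase in hepatocytes. The series' design text instead calls the 5-week knockout germ-line. The labels list no treatment, and they do not say whether each sample came from a separate mouse, so the spread between samples may be technical. The other 10, from mice aged 8 weeks, were not analysed: their table carries array identifiers that nothing used here pairs with genes. Loss of miR-122 itself could not be examined, since no probe set of the 5-week table carried its name.

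Growth hormone from the pituitary binds its receptor on hepatocytes, which activates the kinase JAK2 and, through it, STAT5B. STAT5B then enters the nucleus and binds DNA at a palindromic core. In rodents the hormone reaches the liver in pulses in males and more evenly in females, and STAT5B carries this difference into male-biased and female-biased gene expression. CISH and SOCS2 are induced by STAT5 and dampen the receptor's signal, while BCL6 is a repressor that can occupy STAT5 sites.

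All values are RMA signals on the log2 scale, a background-corrected, quantile-normalized summary per probe set made by the authors. A difference of 1 is therefore a 2-fold change. Array background was judged from 41 probe sets of olfactory receptor genes, used as a set expected to be silent in liver: their median over the 4 arrays was 6.04 and their 95th percentile 7.01. These probe sets were among those the authors had kept, so the true background may lie lower. In bulk liver, fewer cells of a type and less RNA per cell cannot be told apart.

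The 4 arrays had similar median signals of 5.92 to 5.96. Over all 35556 probe sets, Pearson's r was 0.986 between the 2 controls, 0.991 between the 2 knockouts and 0.979 to 0.981 between genotypes. The Y-linked genes Ddx3y, Eif2s3y, Kdm5d and Uty lay between 6.83 and 8.77 in all 4 samples, which are labelled male. Of 8 earlier reported miR-122 targets, listed as a check of the labels, 5 were higher in the knockout with limma and none lower. The 11 hepatocyte markers had mean levels of 13.03 to 13.15 in all 4 samples and none was called. The 12 macrophage markers had a mean level of 8.38 and 8.45 in controls and 9.55 and 9.32 in knockouts, with 11 called higher, and the 10 stellate cell and fibroblast markers 7.65 and 7.76 against 8.53 and 8.6, with 6 called higher. The 8 measured cholangiocyte markers had mean levels of 6.28 and 6.53 in controls and 7.55 and 7.72 in knockouts, with 6 called higher. The other 2 were the keratin genes Krt7 and Krt19, which differed by 0.1 and -0.315. Krt19 read 6.04 and 7.23 in controls and 6.18 and 6.46 in knockouts, so its groups overlapped. The Krt19 difference was -0.91 without the first control and 0.28 without the second. Both measured neutrophil markers were called higher and 1 of 7 endothelial markers lower, and none of the erythroid, pancreas and adipose markers was called. Over all genes, 9.60% were called higher and 3.30% lower. The part of these cells in the results below was not tested. The second control stood apart from the first in several genes described here. For some of these genes, though not all, the difference is also given with 1 control left out.

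In the knockout livers, 8 of the 10 genes had a lower mean and 2 a higher one. Hsd3b5, Elovl3 and Slco1a1, all male-biased hepatocyte genes, were lower by the widest margins, with differences of -3.36 to -4.42 on the log2 scale. Mup3 and the feedback inhibitor gene Socs2 were more than 2-fold lower, and Bcl6 and the female-biased A1bg more than 2-fold higher. The receptor gene Ghr and Stat5b differed by 0.14 or less. Of the 10 genes, 9 had control and knockout values that did not overlap, 7 of them lower and 2 higher, beside 59.1% of all genes (27.0% lower and 32.1% higher). A mean difference of at least 2-fold was reached by 7 of the 10, beside 4.04% of all genes. Because these genes were picked with this contrast in view, nothing is read from either count.

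**Figure D1:**
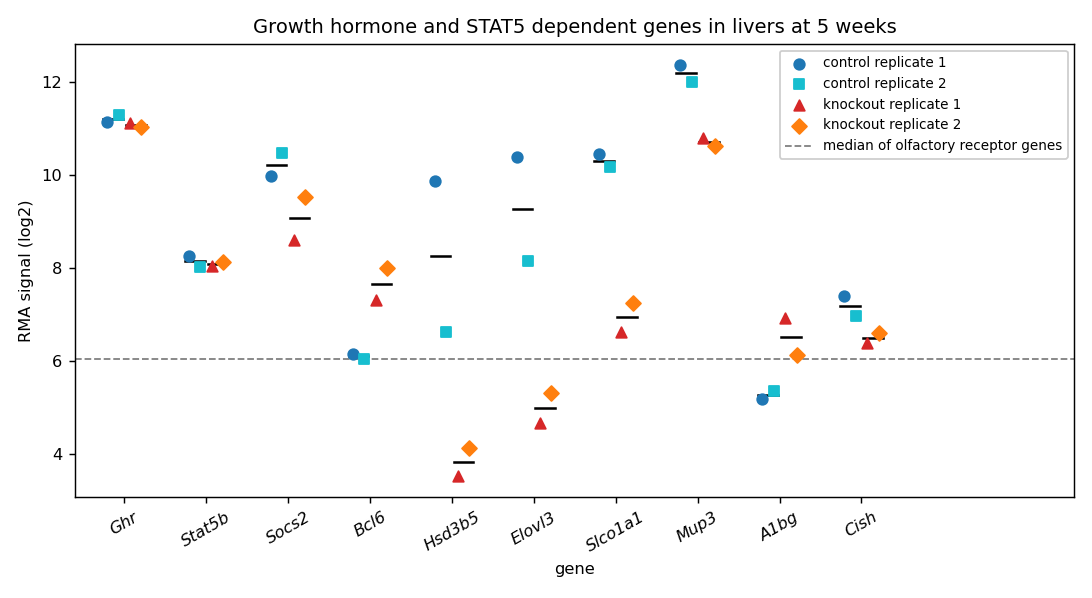
RMA signal (log2, vertical axis) of each gene in the 2 control and 2 knockout samples at 5 weeks; points are samples, short bars are group means, and the dashed line is the median of olfactory receptor genes at 6.04. Both knockout values of Hsd3b5 and Elovl3 lie below the line, both control values of A1bg do too, and the 2 controls are far apart for Hsd3b5 and Elovl3.

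The promoters show where these genes carry the core sequence that STAT5 recognises. RefSeq promoter windows of GRCm38.p6, reaching from 250 bases before to 50 bases after an annotated start, were matched by symbol for 8 of the 10 genes, 11 windows in all; none was used for Socs2 and Elovl3. The motif TTCNNNGAA, which reads the same on both strands, was found in 4 of the 11 windows, against 8.3% of all 32851 windows, and at least 2 copies in 2 of the 11, against 0.457%. It lay in Cish, A1bg and both windows of Bcl6, and in none of those of Ghr, Stat5b, Hsd3b5, Slco1a1 and Mup3. A match is a sequence description and not a measured binding site, and its absence says only that these letters are not in this window. The windows below show 1 motif-bearing window for each of Cish, Bcl6, A1bg and Igfals, with Hsd3b5 for contrast, 5′ to 3′ on the gene's strand and with each match in capitals. They are Cish at chr9:107296409-107296708 on the plus strand, the second annotated start of Bcl6 at chr16:23981234-23981533 on the minus strand, A1bg at chr15:60921221-60921520 on the minus strand, the second start of Igfals at chr17:24877981-24878280 on the plus strand, and Hsd3b5 at chr3:98645485-98645784 on the minus strand.
Cish: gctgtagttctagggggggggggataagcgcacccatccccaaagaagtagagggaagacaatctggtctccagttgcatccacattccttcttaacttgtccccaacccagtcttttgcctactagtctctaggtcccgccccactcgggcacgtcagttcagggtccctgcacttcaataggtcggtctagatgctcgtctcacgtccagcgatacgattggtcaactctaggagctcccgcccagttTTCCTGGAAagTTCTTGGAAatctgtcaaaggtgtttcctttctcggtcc
Bcl6: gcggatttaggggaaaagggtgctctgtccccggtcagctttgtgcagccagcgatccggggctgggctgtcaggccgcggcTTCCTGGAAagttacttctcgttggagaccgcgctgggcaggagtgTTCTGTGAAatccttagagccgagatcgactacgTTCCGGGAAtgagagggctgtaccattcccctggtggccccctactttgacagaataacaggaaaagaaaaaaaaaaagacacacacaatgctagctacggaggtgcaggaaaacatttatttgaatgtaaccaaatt
A1bg: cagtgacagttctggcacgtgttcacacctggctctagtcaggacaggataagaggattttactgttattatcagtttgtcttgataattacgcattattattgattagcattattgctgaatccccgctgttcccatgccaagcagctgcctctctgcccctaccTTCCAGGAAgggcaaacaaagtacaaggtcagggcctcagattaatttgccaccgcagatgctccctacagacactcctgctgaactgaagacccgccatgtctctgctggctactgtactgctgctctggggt
Igfals: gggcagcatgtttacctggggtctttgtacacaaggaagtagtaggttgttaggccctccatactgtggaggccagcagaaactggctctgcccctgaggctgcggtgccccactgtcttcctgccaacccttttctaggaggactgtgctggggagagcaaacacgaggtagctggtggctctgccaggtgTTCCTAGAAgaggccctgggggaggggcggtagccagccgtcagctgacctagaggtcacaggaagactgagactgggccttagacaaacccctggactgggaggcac
Hsd3b5: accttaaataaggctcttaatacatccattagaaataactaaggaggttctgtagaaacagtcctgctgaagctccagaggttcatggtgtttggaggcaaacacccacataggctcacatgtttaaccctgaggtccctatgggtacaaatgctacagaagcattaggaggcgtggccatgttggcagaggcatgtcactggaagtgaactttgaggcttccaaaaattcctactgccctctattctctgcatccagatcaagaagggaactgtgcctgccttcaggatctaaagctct
In Cish the first match began at the annotated start itself and the second 11 bases after it. The match in A1bg began at position -84. In Bcl6 the matches of the second start began at positions -168, -122 and -88 relative to it, and the single match of the first start at -118 relative to that one. Igfals, a STAT5 target outside the 10 genes, held a match at -58 from its second start and another at -236 from its first.

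**Figure D2:**
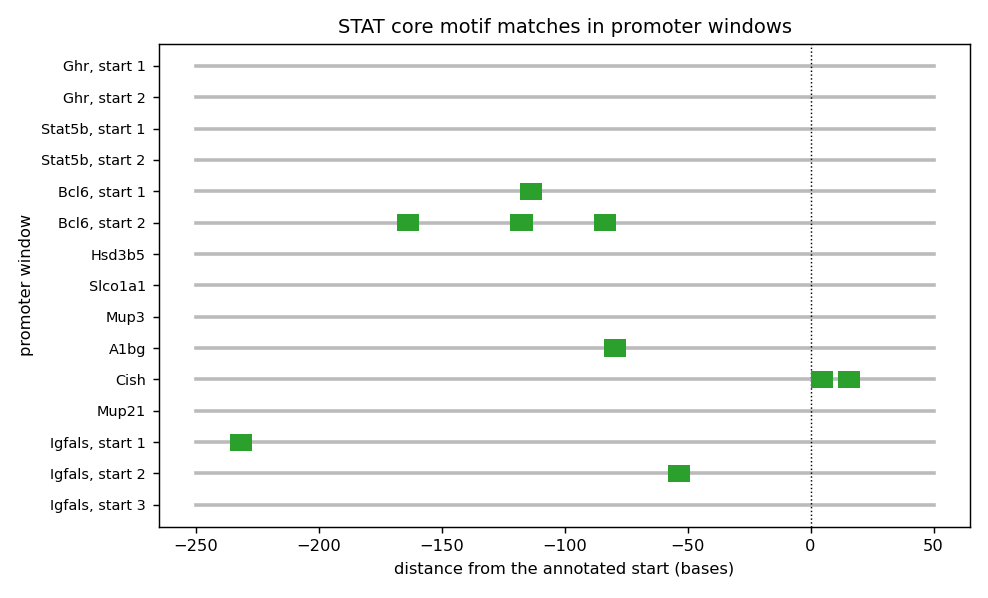
Promoter windows (grey lines) of the genes with an annotated start, plus Mup21 and Igfals, drawn by distance from the start in bases; green boxes are matches to TTCNNNGAA. Cish has 2 matches at the start, the second start of Bcl6 has 3, and Hsd3b5, Slco1a1, Mup3 and Mup21 have none.

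Ghr, the receptor that starts the pathway, had signals of 11.14 and 11.28 in controls and 11.12 and 11.03 in knockouts. The mean difference was -0.14, a level of 0.911 times control, and the gap between the groups was 0.02, the smallest among the genes whose groups did not overlap. Stat5b, the main hepatic STAT5, read 8.26 and 8.02 in controls and 8.04 and 8.12 in knockouts. Its groups overlapped, and its mean difference of -0.06 became 0.06 without the first control. Its close relative Stat5a read 7.58 and 7.45 against 7.74 and 7.69. The group means of Ghr, Stat5b and Stat5a thus differed by 0.2 or less, and protein and phosphorylation were not measured.

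Socs2 encodes a feedback inhibitor of the growth hormone receptor whose loss in mice leads to overgrowth. Its brighter probe set read 9.97 and 10.46 in controls and 8.6 and 9.53 in knockouts. Both knockouts lay below both controls, but the 2 knockouts differed by 0.93, a gap exceeded by only 0.393% of probe sets. The group means of 10.22 ± 0.35 and 9.07 ± 0.66 (SD, n = 2 each) gave a difference of -1.15, or 2.22 times lower. A dimmer Socs2 probe set read 7.61 and 8.04 against 6.73 and 7.46, a difference of -0.73. The first knockout was thus the lower one on both probe sets, and the difference of the brighter one was -0.69 without it and -0.91 without the second control.

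Cish, the other STAT5-induced inhibitor in the set, read 7.4 and 6.96 in controls and 6.39 and 6.6 in knockouts. Its groups did not overlap, and it was 1.61 times lower, with means of 7.18 ± 0.31 and 6.495 ± 0.148 (SD, n = 2 each). The signal was weak: only the first control exceeded the 95th percentile of the olfactory receptor probe sets. Bcl6, the repressor, moved the other way: it read 6.15 and 6.05 in controls, close to the olfactory receptor median, and 7.3 and 8.0 in knockouts. The difference between the measured means was 1.55, or 2.93-fold. Its size is not fixed, since the controls lay at the level taken here as background. The means were of 6.10 ± 0.07 and 7.65 ± 0.50 (SD, n = 2 each). The 2 knockouts again differed, by 0.7, and the second had the higher Bcl6. Bcl6 is also expressed in lymphoid cells, and 1 of the 4 measured lymphocyte markers was called higher in the knockout, with mean list levels of 6.42 and 6.48 in controls and 7.0 and 6.72 in knockouts; their part in the Bcl6 value was not tested.

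Hsd3b5 encodes a 3-ketosteroid reductase of the hydroxysteroid dehydrogenase family that is found in male mouse liver. It read 9.87 and 6.62 in controls and 3.52 and 4.12 in knockouts. Both knockout values lay well below the olfactory receptor median, where only 10.6% and 16.9% of all probe sets of those arrays were dimmer. The mean difference of -4.42 would be 21.5 times, but its size is not fixed, since the knockout was at background and the second control differed from the first by -3.25. Only 0.02% of probe sets had a wider gap between the controls. With the first control left out the difference was -2.8, and with the second left out it was -6.05.

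Elovl3, an elongase of very long chain fatty acids, read 10.38 and 8.15 in controls and 4.66 and 5.32 in knockouts. Both knockout values were again below the olfactory receptor median, and the second control differed from the first by -2.23. The mean difference of -4.28 became -3.16 without the first control and -5.39 without the second. Slco1a1, a sinusoidal carrier of organic anions and steroid conjugates, did not share this control spread. It read 10.44 and 10.16 in controls and 6.63 and 7.25 in knockouts. Its difference of -3.36, or 10.3 times lower, stayed between -3.05 and -3.67 with any one sample left out, and its knockout values lay above the olfactory receptor median, the second also above the 95th percentile.

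A1bg, a secreted glycoprotein gene that is female-biased in mouse liver, read 5.19 and 5.36 in controls and 6.92 and 6.12 in knockouts. The control values lay below the olfactory receptor median and the second knockout only just above it. Its difference of 1.25, or 2.37-fold, with means of 5.28 ± 0.12 and 6.52 ± 0.57 (SD, n = 2 each), therefore rests on a signal near background and its size is not fixed either; it was 0.85 without the first knockout. The first knockout thus had the higher A1bg of the pair, and also the lower Socs2, Cish, Bcl6 and Slco1a1.

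**Figure D3:**
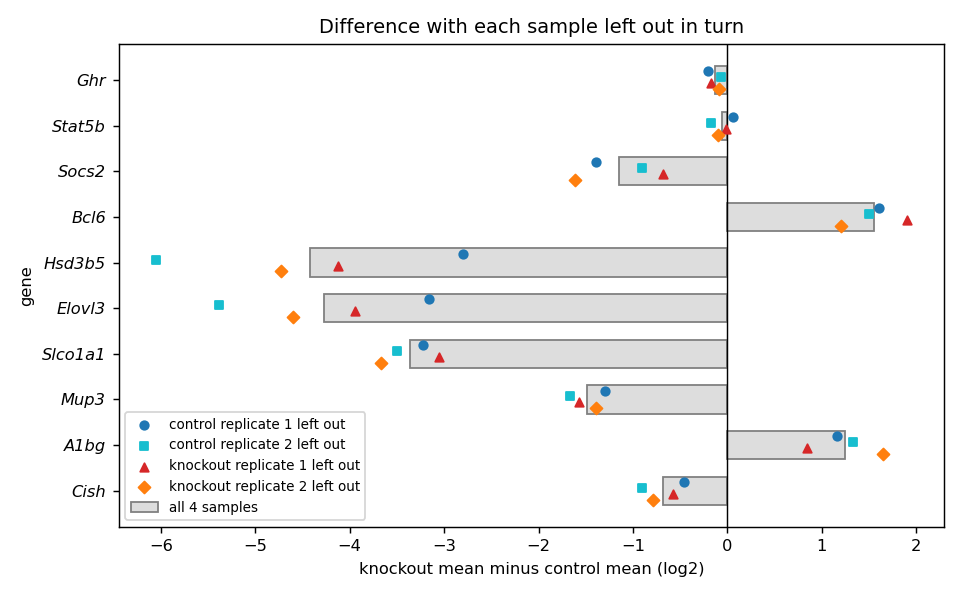
Knockout mean minus control mean (log2, horizontal axis) for each gene; bars use all 4 samples and points leave out 1 sample at a time. The points spread from -2.8 to -6.05 for Hsd3b5 and from -3.16 to -5.39 for Elovl3, depending on the control left out, and stay between -3.05 and -3.67 for Slco1a1.

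Mup3 belongs to the major urinary proteins, pheromone carriers that the male liver secretes in large amounts. It read 12.37 and 12.0 in controls and 10.79 and 10.61 in knockouts. The groups were well apart, with means of 12.19 ± 0.26 and 10.70 ± 0.13 (SD, n = 2 each) and a level 2.8 times lower. The family is encoded by a cluster of near-identical genes, so a probe set can read several of them, and 13 probe sets carried the names of 7 Mup genes. Of these, 12 had a lower mean in the knockout. Mup21 read 6.91 and 5.14 against 4.27 and 4.33, a difference of -1.73 that ends below the olfactory receptor median and was -0.84 without the first control and -2.61 without the second. Mup1 differed by -0.93 and Mup5, near background, by -0.59. The 7 probe sets named Mup2 differed by -0.47 to -0.56 and Mup7 by -0.44, and their values ran so close together that they cannot be taken as separate genes. In each array they were brighter than 99.4% to 99.9% of all probe sets. Whether signals this high narrow a difference was not tested. Mup20, known as darcin, was the exception: it read 12.8 and 11.62 in controls and 12.78 and 12.71 in knockouts, so that only the second control was low. Its difference was 1.13 without the first control and -0.055 without the second.

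**Figure D4:**
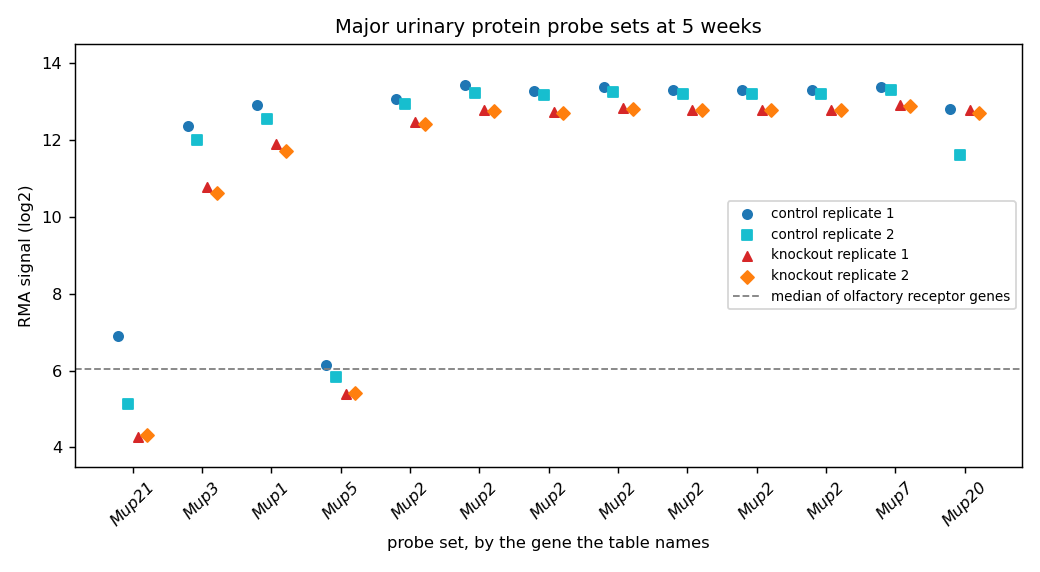
RMA signal (log2, vertical axis) of the 13 probe sets named after Mup genes in each sample, ordered by the difference between knockout and control; the dashed line is the olfactory receptor median of 6.04. Mup21 and Mup3 differ most over all 4 samples, the 7 Mup2 probe sets repeat 1 pattern, and Mup20 is low only in the second control.

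The promoter windows of Mup3 and Mup21 were the most alike among those compared with Mup3. They shared 277 bases over 306 aligned columns, or 90.5%, against 49.3% to 79.6% for the 12 other Mup windows in the table. Windows are anchored at annotated starts, so a start annotated elsewhere lowers this identity, and it describes promoters and not the probes. Of the windows compared with Mup3, only those of Mup21, Mup2 and Mup7 belong to genes with a named probe set. The other measured Mup genes had no window in the comparison. Whether promoter likeness goes with the difference between knockout and control was therefore not tested. The windows of Mup3 at chr4:62087268-62087567 and Mup21 at chr4:62150792-62151091, both on the minus strand and with no TTCNNNGAA, are shown for that likeness.
Mup3: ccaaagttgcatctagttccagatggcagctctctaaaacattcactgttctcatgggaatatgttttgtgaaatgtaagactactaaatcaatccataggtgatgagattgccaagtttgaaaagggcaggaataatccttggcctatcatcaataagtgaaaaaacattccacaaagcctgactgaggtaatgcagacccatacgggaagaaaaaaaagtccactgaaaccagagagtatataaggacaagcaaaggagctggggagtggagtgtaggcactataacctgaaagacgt
Mup21: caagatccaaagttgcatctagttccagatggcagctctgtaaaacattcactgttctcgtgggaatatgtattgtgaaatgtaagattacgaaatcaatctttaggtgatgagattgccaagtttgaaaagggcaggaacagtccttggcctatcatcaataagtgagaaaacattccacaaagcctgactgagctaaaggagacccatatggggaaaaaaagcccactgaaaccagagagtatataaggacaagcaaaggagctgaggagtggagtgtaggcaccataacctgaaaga

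Relatives of the other genes were added after their values were seen. Among 5 named Hsd3b genes, Hsd3b2 read 8.84 and 8.46 in controls and 7.25 and 7.21 in knockouts, a difference of -1.42, and Hsd3b4 differed by -0.96. Hsd3b3 differed by 0.27, its groups overlapped, and the difference was -0.31 without the second control. Elovl1, Elovl2, Elovl5 and Elovl6 differed by 0.46, -0.16, -0.18 and -0.14, and Elovl7, near background, by 0.93. The Elovl7 controls read 4.89 and 6.21, and its difference was 0.27 without the first and 1.59 without the second. Slco1a4, of the same carrier family as Slco1a1, read 9.16 and 9.67 in controls and 9.31 and 7.54 in knockouts, so only the second knockout was low. The Slco1a4 difference of -0.99 was -1.88 without the first knockout and -0.105 without the second, and Slco1b2 differed by -0.12.

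Other genes of the pathway were tested with limma at 5 weeks, in 1 fit over the 14996 probe sets that the authors' table names. From lists of receptor signalling, IGF-axis, transcription factor and sex-biased genes, 66 genes outside the 10 were measured, a few of them in more than one list, of which 9 fell and 1 rose at an adjusted p under 0.05. Over all 12871 genes, 3.30% fell and 9.60% rose. These calls depended on the setting: over all 35556 probe sets of the value table no probe set passed with limma, with 5640 at an unadjusted p under 0.05. None passed with any 1 of the 4 samples left out either, but then 1 group alone gives the spread, the lone sample is assumed to vary like it, and such a loss says little about these calls.

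None of the 12 other genes of receptor signalling passed, and their median difference was 0.11, against 0.0050 over all genes. The kinase Jak2 read 6.43 and 6.65 in controls and 7.0 and 6.88 in knockouts (limma adjusted p = 0.0973), and Socs3, induced mainly by other cytokines, 7.15 and 6.92 against 7.76 and 7.22 (limma adjusted p = 0.208). Of 5 IGF-axis genes, 1 fell. This was Igfals, the acid-labile subunit that holds IGF1 in the circulating complex, at 9.35 and 9.05 in controls and 7.64 and 8.26 in knockouts, a difference of -1.25 ± 0.23 (SE, limma adjusted p = 0.0270). As with Socs2, the first knockout was the lower one. Igf1 itself, the main growth mediator of the hormone, differed by -0.21 (limma adjusted p = 0.25).

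Among 12 transcription factors of sex-dependent liver expression, 1 fell. It was the forkhead factor Foxa2, with 7.53 and 7.43 in controls and 6.83 and 7.03 in knockouts (limma adjusted p = 0.0399). Hnf4a, a master regulator of hepatocytes, differed by 0.04 (limma adjusted p = 0.834), and the female-biased repressor Cux2 by -0.47 (limma adjusted p = 0.0879).

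Of 19 further male-biased genes, 5 fell, none rose and 14 did not pass, with a median difference of -0.47. The 4 with the smallest p were Mup1, the peroxisomal coenzyme A hydrolase gene Nudt7 (-1.19), Mup2 and Mup7, so 3 of the 5 are Mup paralogs that may be read by shared probes. The fifth was the fatty acid hydroxylase gene Cyp4a12a, at 12.14 and 11.64 in controls and 8.88 and 10.48 in knockouts (limma adjusted p = 0.0497). Nudt7 read 11.03 and 10.97 in controls and 9.53 and 10.1 in knockouts (limma adjusted p = 0.0214). Of 21 further female-biased genes, 1 rose and 2 fell, with a median of 0.10. The riser was Ntrk2, whose values of 5.2 and 5.05 in controls and 5.65 and 6.1 in knockouts lay below or close to the olfactory receptor median. Those that fell were the steroid hydroxylase gene Cyp17a1 (-2.11, limma adjusted p = 0.0229) and the oxysterol hydroxylase gene Cyp39a1 (-1.52, limma adjusted p = 0.0455).

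The 2 controls differed from each other across both sex-biased lists, a comparison that does not involve the knockouts. All 23 measured male-biased genes were lower in the second control than in the first, beside 54.1% of all genes, and 10 of them were at least 2-fold lower, beside 0.233% of all genes. Without Hsd3b5, Elovl3, Slco1a1 and Mup3, all 19 were lower and 8 at least 2-fold lower, beside 0.218% of all genes outside the 10. The list counts several Mup genes and other close paralogs that probes may share, so its genes are not all separate. Besides Hsd3b5 and Elovl3, the steroid hydroxylase gene Cyp7b1 read 11.3 in the first control and 8.48 in the second, and 8.35 and 8.07 in the knockouts. Leaving out the first control took the Cyp7b1 difference from -1.68 to -0.27. Of 22 female-biased genes, 19 were higher in the second control, beside 44.0% of all genes, and 6 were at least 2-fold higher, beside 0.668%. Without A1bg, 18 of 21 were higher and 6 at least 2-fold higher, beside 0.669% of all genes outside the 10. The female-biased list also holds close paralogs, Cyp2b9 and Cyp2b13 among them. The cytochrome gene Cyp2b9, strongly female-biased in adult mice, read 5.33 in the first control and 12.35 in the second, and 12.08 and 11.89 in the knockouts. No probe set of the authors' table had a wider gap between the controls than these 7.02. Cyp2b13 read 4.26 and 8.06 in controls and 8.52 and 6.77 in knockouts.

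The size of this control difference varied among the genes described here. Slco1a1 and Mup3 differed in the same direction as the other male-biased genes but by -0.28 and -0.37, and A1bg in that of most female-biased genes by 0.17. Bcl6, Socs2, Cish, Ghr and Stat5b, which are in neither list, differed by -0.1, 0.49, -0.44, 0.14 and -0.24. Between the 2 knockouts, 2 male-biased genes were at least 2-fold higher in the second, beside 0.101% of all genes. They were the paralogs Cyp4a12a and Cyp4a12b, which probes may share, so they may not be separate. In the female-biased list, 2 genes were at least 2-fold lower, beside 0.210%. The median gap was 0.11 over the male-biased and -0.22 over the female-biased list. Against the first control alone, Hsd3b5, Elovl3 and Cyp7b1 were far lower in all 3 other livers, and for Cyp2b9 it was the first control that stood alone.

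**Figure D5:**
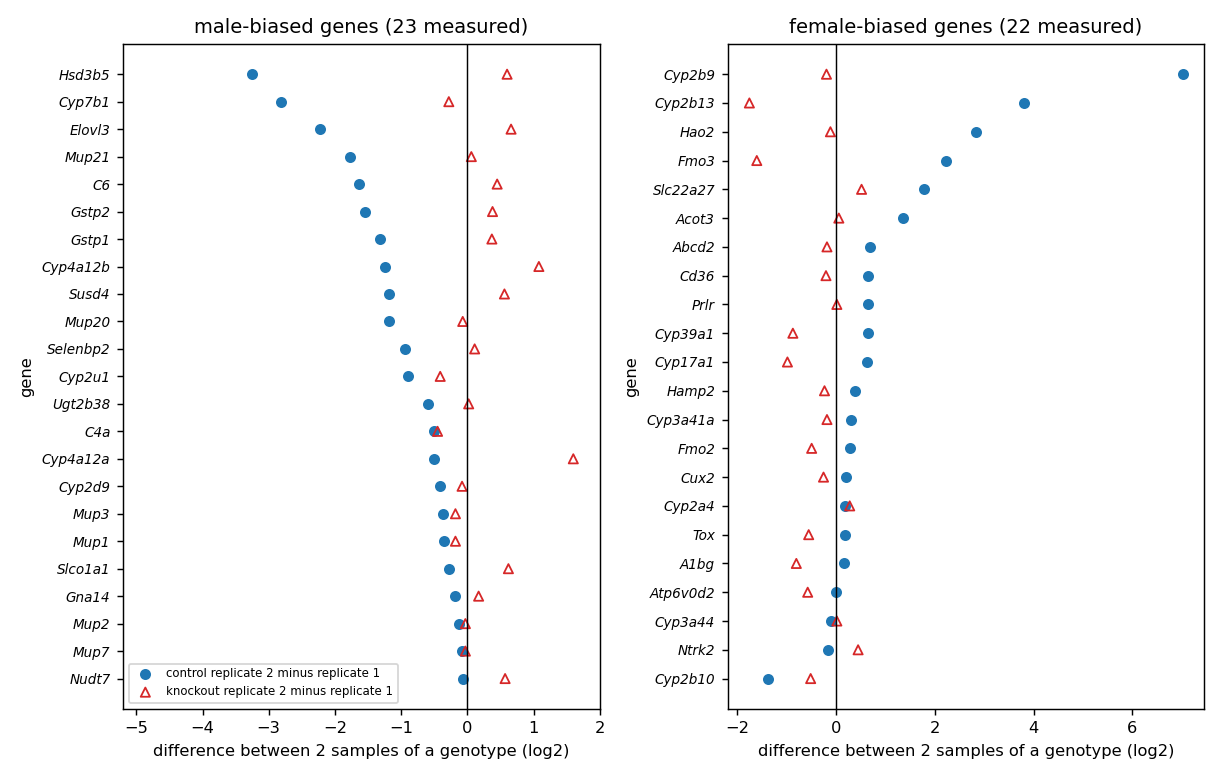
Difference between the 2 samples of a genotype (log2, horizontal axis) for each measured male-biased (left) and female-biased (right) gene; filled circles are control replicate 2 minus replicate 1 and open triangles knockout replicate 2 minus replicate 1. All 23 male-biased circles lie below 0 and 19 of 22 female-biased circles above it, reaching 7.02 for Cyp2b9.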

How the data were processed

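The 4 RNA samples of 5-week livers were hybridised to Affymetrix whole-transcript arrays. The log2 signals per sample were deposited by the authors rounded to 2 decimals. The submitters' processing notes name RMA in Affymetrix Expression Console, and no version or genome build is given in the sources used here. The authors' deposited table of main results names 14996 of the 35556 probe sets and holds log2 group means, a fold (linear ratio) and a p-value per probe set, per the file headers. Its means matched the sample values within 0.0050, which ties its gene names to the samples. How its rows were picked is not stated; the higher group mean was at least 4.94 in each. Its 4 columns of single arrays match no sample label and were not used.

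Names were updated through RefSeq accessions (GRCm38.p6, names only), leaving 12871 genes, each represented by its brightest probe set. Tests for genes outside the 10 used limma 3.58.1 (R 4.3.3; lmFit, eBayes, no block) with Benjamini-Hochberg adjustment over 14996 probe sets, chosen after the files were seen and tested on simulated data. With 2 samples per group, precision is limited by the number of arrays. The planned tests on the 8-week samples, and a planned search for genes of like pattern, could not be run, as those rows carry no gene names here and 4 samples are too few. Genes and lists were chosen with earlier results of these data known. The text names all 10 genes, every Mup probe set, and up to 4 called genes of each other list plus exceptions (at 5 weeks in place of 8). Family relatives, Cyp4a12a, Cyp4a12b, Cyp7b1, Cyp2b9, Cyp2b13 and pathway genes that did not pass were added after their values were seen. Alternatives were a replicate block, renormalization, centring, a filter on dim probe sets, a variance trend, all probe sets, the authors' p-values and leaving out samples.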

Additional observations from a re-analysis of the deposited data

How the results depend on the processing

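The count of genes with a lower mean in the knockout was 8, and 7 to 8 with any 1 sample left out, Stat5b being the one that turned. The count at least 2-fold lower was 5 (4 to 5; 4 where the Socs2 probe sets are averaged), and at least 2-fold higher 2 (1 to 2); without the first knockout A1bg fell short. The limma calls among other genes depended on the setting. Over all named probe sets, 1304 were higher and 490 lower; with a replicate block 321 and 69, and over all 35556 probe sets 0 and 0. Leaving out any 1 sample left 0 in each direction (0 to 0), with 2396 to 3876 probe sets at an unadjusted p under 0.05; there the lone sample is assumed to vary like the other group, and the loss says little about the calls. Of the 66 other pathway genes, 9 fell and 1 rose; with a replicate block 1 fell, Igfbp2, which was not among the 9, and 0 rose, and over all probe sets or with any 1 sample left out 0 and 0. The riser, Ntrk2, was also lost (0) with dim probe sets left out, with a variance trend and with the authors' p-values. The count that fell was 6 with renormalization, 6 with a variance trend and 8 with centring. Cyp4a12a and Cyp39a1 were lost with renormalization and with the trend, Cyp17a1 with the trend, and Mup7 with renormalization and centring. Same-numbered samples had deviations correlated at 0.051 over probe sets, with 2 pairs, so the numbers are not taken to pair samples. The settings meant for the 8-week samples were not run, as those rows carry no gene names here.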

Other observations

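Outside the lists above, the widest gaps between the 2 controls, picked after their values were seen, included genes known from intestine. Dmbt1, a mucosal scavenger receptor gene, read 5.17 in the first control and 10.81 in the second, and 5.88 and 5.81 in the knockouts. Slc26a3, a chloride and bicarbonate exchanger of the colon, read 3.65 and 6.23 in controls and 3.71 in both knockouts, and the mucin gene Muc3 read 4.43 and 7.02 in controls and 4.51 and 4.61 in knockouts. For these genes the second control stood alone, unlike for Cyp2b9.

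The same ranking held 2 genes of cholesterol synthesis. Squalene epoxidase, Sqle, read 6.53 and 9.03 in controls and 7.28 and 8.15 in knockouts, and the sterol demethylation gene Msmo1 7.78 and 10.49 in controls and 7.96 and 8.54 in knockouts. Asns, the asparagine synthetase gene, ran the other way, at 9.89 and 8.38 in controls and 10.81 and 10.88 in knockouts.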
